A study of Homo sapiens with 4 samples.

Results

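The KRAB zinc finger genes that lie beside the centromere on the short arm of chromosome 19, the 19p12 cluster, were followed in 2 hepatocellular carcinoma cell lines depleted of CDCA8. The cluster was given as 31 gene symbols, of which 30 had a value among the 18382 gene symbols measured, and ZNF730 had none. It was chosen by earlier values of these same libraries, because ZNF257 and ZNF681 were higher after the knockdown in both lines, so the knockdown values of the members are given as a description with no test.

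RNA of Huh1 and of Huh7, established human liver cancer lines with hepatocyte features, was sequenced 48 h after transfection. The control groups received NCsiRNA, a negative control siRNA, and the depleted groups received CDCA8-1siRNA, both at 15 nM. CDCA8, also called Borealin, is a subunit of the chromosomal passenger complex, which guides chromosome segregation and cytokinesis. The comparison asks which transcripts differ when CDCA8 is depleted. There were 4 libraries, 1 for each line and siRNA, so no replicates exist and the spread between cultures of a condition could not be measured. Each line stands for 1 tumour, and each knockdown rests on a single siRNA.

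KRAB zinc finger proteins bind DNA through an array of C2H2 fingers and carry a KRAB domain that recruits TRIM28, also called KAP1. TRIM28 in turn brings the histone methyltransferase SETDB1, deacetylases and HP1 proteins, and the bound DNA takes on the heterochromatin mark H3K9me3. The genes beside the chromosome 19 centromere arose by repeated duplication in primates, and several of their products are known for silencing transposable elements: ZNF91 acts on SVA elements and ZNF93 on LINE-1.

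Levels are in RPKM, which counts reads relative to transcript length and library depth. A change is the log2(RPKM + 1) of the CDCA8-1siRNA library minus that of the NCsiRNA library of the same line. The added 1 makes the change of a low gene smaller than its plain ratio. The values correspond to 13384836 and 13193713 reads in the control and knockdown libraries of Huh1, and to 12197606 and 12266642 reads in those of Huh7. CDCA8 itself was at 24.1 RPKM with NCsiRNA and 5.86 with CDCA8-1siRNA in Huh1, and at 51.5 and 7.36 RPKM in Huh7. Of 9 hepatocyte markers, 8 were lower with CDCA8-1siRNA in each line, with medians of -0.43 in Huh1 and -0.50 in Huh7. Among all genes with at least 1 RPKM in a library of the pair, 4912 of 10933 in Huh1 and 5254 of 11558 in Huh7 were lower. Albumin (ALB) was at 3447 and 2684 RPKM in Huh1 and at 1166 and 721 in Huh7. The exceptions were AFP in Huh1, at 24.8 and 27.5 RPKM, and TTR in Huh7, at 29.3 and 48.5 RPKM. Among 8 measured markers of other cell types, CDH5 was at 0 in every library, VWF was at most 0.00923, CD3E at most 0.162 and PTPRC at most 0.417 RPKM. The fibroblast collagens COL1A1 and COL1A2 were at most 0.122 RPKM in Huh1 but at 107 and 125 RPKM and at 31.4 and 56.9 RPKM in the Huh7 libraries, and COL3A1 was at 1.89 and 4.14 there. The macrophage and lysosome gene CD68 was at 23.3 and 16.5 RPKM in Huh1 and at 3.71 and 3.73 in Huh7. The part of these markers in the results on the zinc finger genes was not tested. In such bulk RNA, fewer cells that express a gene and less of its RNA per cell cannot be told apart.

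The member genes with a listed promoter share a stretch of 8 letters in front of their transcription starts. Promoter stretches from 250 bases before to 50 bases after the start were at hand for 26 of the 31 members in RefSeq on GRCh38.p14, and not for ZNF98, ZNF99, ZNF253, ZNF506 and ZNF676. Read on the strand of the gene, the 8 letters found in the largest number of these stretches were CCAATCAG, a CCAAT box with 3 further bases. The overlapping TCCAATCA was as frequent. Matches were then searched for on both strands. A CCAAT box is a common promoter element that the factor NF-Y is known to bind. CCAATCAG was in all 26 stretches, which follows in part from its having been picked there. It was in 33 of 280 promoters (11.8%) of chromosome 19 ZNF genes that are not members, including any inside the cluster. It was also in 32 of 340 (9.41%) of ZNF genes on other chromosomes and 1393 of 35116 (3.97%) of all promoters. The shorter CCAAT, which lies within it, was in all 26 as well, and in 43.9%, 37.4% and 34.6% of those sets. ZNF682 has 2 listed starts, and only the one farther upstream, used here, has the match. With both starts kept, 26 of 27 member promoters had it, and the other sets keep every listed start. The 110 bases before the start are printed with CCAATCAG in capitals. The first set holds the genes named in the choice of the cluster and examples of members that were higher in both lines, as most members were. Of these, ZNF429 was under 1 RPKM in Huh1.
ZNF257 (chr19:22052374-22052483, plus strand): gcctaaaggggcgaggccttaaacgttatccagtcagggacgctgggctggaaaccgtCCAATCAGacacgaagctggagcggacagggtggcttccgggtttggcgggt
ZNF681 (chr19:23758892-23759001, minus strand): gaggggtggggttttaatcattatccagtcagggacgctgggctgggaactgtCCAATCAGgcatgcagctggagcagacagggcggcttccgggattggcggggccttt
ZNF714 (chr19:21082093-21082202, plus strand): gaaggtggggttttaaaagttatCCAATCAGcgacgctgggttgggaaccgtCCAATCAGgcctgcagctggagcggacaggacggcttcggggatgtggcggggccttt
ZNF91 (chr19:23395472-23395581, minus strand): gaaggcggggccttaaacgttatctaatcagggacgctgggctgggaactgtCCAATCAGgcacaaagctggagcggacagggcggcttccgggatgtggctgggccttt
ZNF675 (chr19:23687213-23687322, minus strand): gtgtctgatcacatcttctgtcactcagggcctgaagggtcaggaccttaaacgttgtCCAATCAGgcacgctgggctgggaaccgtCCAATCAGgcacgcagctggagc
ZNF429 (chr19:21505492-21505601, plus strand): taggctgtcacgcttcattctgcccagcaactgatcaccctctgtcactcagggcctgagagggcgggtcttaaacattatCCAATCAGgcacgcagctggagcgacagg

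The next set holds genes that separate the lines, with ZNF208 and ZNF492 near 0 in Huh7 and ZNF726 lower there.
ZNF208 (chr19:22010944-22011053, minus strand): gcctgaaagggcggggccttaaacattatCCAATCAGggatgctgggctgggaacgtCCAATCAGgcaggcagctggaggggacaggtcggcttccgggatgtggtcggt
ZNF492 (chr19:22634214-22634323, plus strand): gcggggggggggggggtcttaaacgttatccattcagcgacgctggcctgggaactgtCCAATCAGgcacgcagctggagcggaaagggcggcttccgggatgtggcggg
ZNF726 (chr19:23914776-23914885, plus strand): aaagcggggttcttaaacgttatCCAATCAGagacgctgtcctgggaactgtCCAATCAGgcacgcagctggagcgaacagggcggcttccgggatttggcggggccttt

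The last set holds members among the least different after the knockdown in Huh1.
ZNF14 (chr19:19733113-19733222, minus strand): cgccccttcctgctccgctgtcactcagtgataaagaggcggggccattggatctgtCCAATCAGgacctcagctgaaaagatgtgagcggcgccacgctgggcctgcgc
ZNF101 (chr19:19668729-19668838, plus strand): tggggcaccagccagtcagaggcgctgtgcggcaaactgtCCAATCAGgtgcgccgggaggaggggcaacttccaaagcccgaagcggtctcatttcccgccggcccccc
ZNF682 (chr19:20039506-20039615, minus strand): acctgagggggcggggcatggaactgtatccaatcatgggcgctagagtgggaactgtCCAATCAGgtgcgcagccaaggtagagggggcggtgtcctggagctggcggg

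All 38 matches lay on the strand of the gene, the strand on which the motif was picked. Their first bases lay between positions -87 and -23 counted from the start, with a median position of -57.5. In 12 of the 26 promoters there were 2 matches, spaced 28 or 29 bases apart, as in ZNF208, ZNF675 and ZNF726. ZNF257, ZNF681 and ZNF91 hold 1 match, as do ZNF14, ZNF101 and ZNF682. These are examples, and the number of matches was not compared with the knockdown change. A match describes the letters and is neither a bound site nor a cause.

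**Figure D1:**
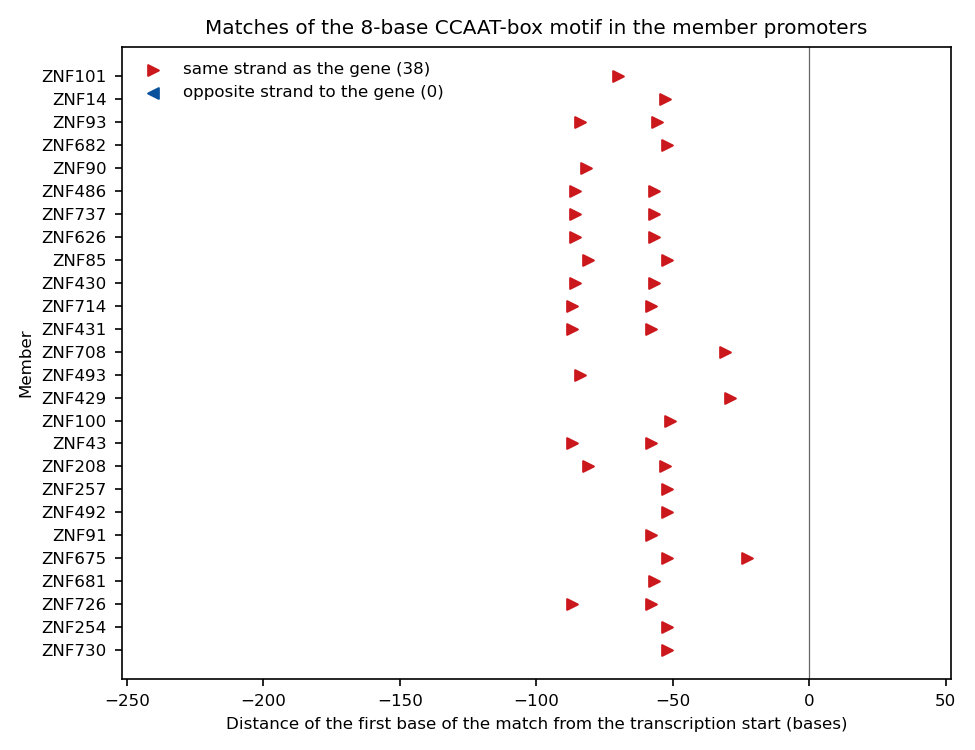
Position of each CCAATCAG match (x axis, bases from the transcription start, marked by the vertical line) in the promoter stretches of 26 members (y axis, in chromosome order with ZNF730 last). All 38 triangles point along the gene and sit between positions -87 and -23, with 12 members showing a second one.

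The transcripts of the members differed in their number of fingers and in how much sequence they shared with other genes. In the longest open reading frame of 1 transcript for each of the 30 members, the number of C2H2 fingers ran from 8 in ZNF101 and ZNF506 to 36 in ZNF208, with a median of 13, and ZNF91 had 31. A KRAB domain was not searched for, since no protein sequences were used here. Of the 50-base stretches of a member's transcript, a median of 94.6% was found in no other gene's transcripts, from 100% in ZNF14 down to 66.7% in ZNF492 and 41.9% in ZNF98. ZNF98 shared 54.2% of its stretches with ZNF492, so the reads of this pair may be split between them, and their values are uncertain. In an alternative without ZNF98 and ZNF492, chosen after seeing the data, the median change of the members that passed the 1 RPKM limit was 0.53 in Huh1 and 0.59 in Huh7.

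After CDCA8 knockdown every member with at least 1 RPKM in a library of the pair was higher than in the control, 26 members in Huh1 and 23 in Huh7, with median changes of 0.54 and 0.59. Over all genes that passed the same limit the medians were 0.02 of 10933 genes in Huh1 and 0.03 of 11558 in Huh7, and 55.1% and 54.5% were higher. In Huh1, 11 members were at least 1.5-fold higher, where 2.48% of all genes were, and 2 members were at least 2-fold higher, ZNF253 and ZNF257, where 0.32% of all genes were. The Huh7 counts were 12 members at least 1.5-fold higher, where 5.3% of all genes were, and 2 at least 2-fold higher, ZNF429 and ZNF681, where 0.874% of all genes were. The 2-fold counts depend on the added 1, since with 0.1 RPKM in its place 8 members in Huh1 and 4 in Huh7 were at least 2-fold higher, where 0.979% and 2.33% of all genes were. The 21 members that passed in both lines were all higher in both, against 39.0% of 10352 genes. The choice of the cluster used this same contrast, so nothing is read from these shares, and under quantile normalization ZNF101 and ZNF682 were slightly lower in Huh1 (-0.03 each).

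The limit of 1 RPKM itself favours higher values, because in Huh1 6 members passed only through the CDCA8-1siRNA library. Among members with at least 1 RPKM in the control library, 20 of 20 in Huh1 and 23 of 23 in Huh7 were higher, with medians of 0.57 and 0.59, where 54.3% and 53.3% of all genes with such control levels were higher. Without any limit, 30 of 30 members were higher in Huh1 and 27 of 30 in Huh7, where 49.3% and 49.6% of all 18382 genes were higher. The exceptions in Huh7 were ZNF626, ZNF676 and ZNF99, all under 0.15 RPKM there. Summed over the 30 members, the level was 65.0 RPKM in the control and 108 after knockdown in Huh1, a ratio of 1.67, and 106 and 173 RPKM in Huh7, a ratio of 1.64.

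The read counts estimated from the values give a 95% exact interval for each ratio, which covers counting error only and rests on approximate transcript lengths. It holds no variation between cultures, so an interval that leaves out 1 is no test of the knockdown. ZNF431 and ZNF726 had no matched transcript length and therefore no interval.

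**Figure D2:**
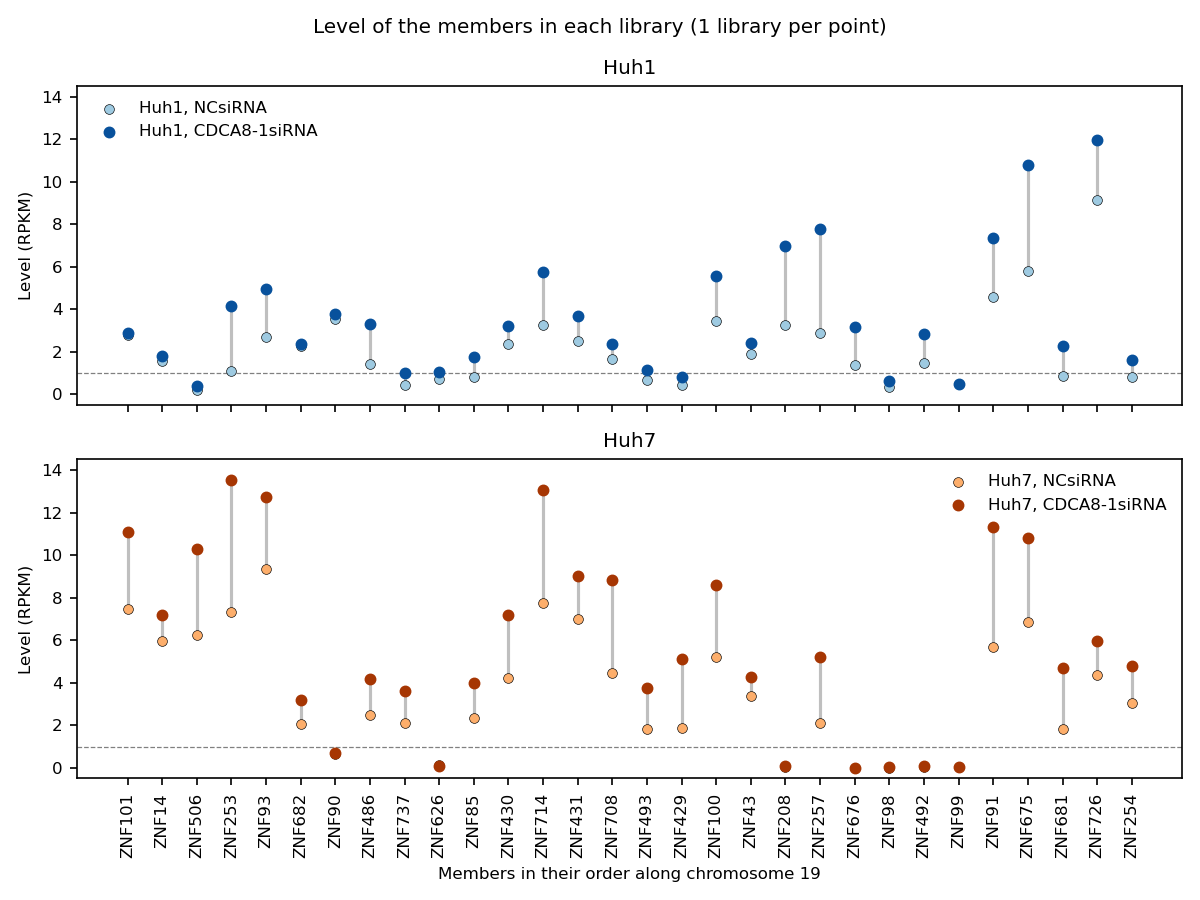
Level of 30 members in RPKM (y axis) in each of the 4 libraries, with members in chromosome order (x axis), pale points for NCsiRNA, dark points for CDCA8-1siRNA, 1 library per point, and the 1 RPKM limit dashed. Dark points lie above pale points nearly throughout, and ZNF208, ZNF676, ZNF98, ZNF492 and ZNF99 lie near 0 in Huh7.

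ZNF257 and ZNF681 are the genes for which the cluster was chosen. ZNF257 was at 2.91 RPKM with NCsiRNA and 7.76 with CDCA8-1siRNA in Huh1, and at 2.10 and 5.19 RPKM in Huh7. Its plain ratio was 2.67 (95% interval 2.20 to 3.23) in Huh1 and 2.47 (1.957 to 3.16) in Huh7, with changes of 1.16 and 1.00. The Huh7 change, before rounding, fell just under the 2-fold limit at 0.997, whereas ZNF681, at 1.02, passed it. ZNF681 was at 0.883 and 2.27 RPKM in Huh1 and at 1.81 and 4.70 RPKM in Huh7, so its control level in Huh1 was under the limit of 1 RPKM. The ratios were 2.57 (1.95 to 3.37) and 2.60 (2.14 to 3.18). For both genes the intervals of the ratio in Huh1 and Huh7 overlapped.

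ZNF91 and ZNF93 are the members best known as repressors of retrotransposons. ZNF91 was at 4.60 and 7.36 RPKM in Huh1 and at 5.69 and 11.3 RPKM in Huh7, with ratios of 1.599 (1.39 to 1.84) and 1.99 (1.76 to 2.25). For ZNF93 the levels were 2.72 and 4.94 RPKM in Huh1 and 9.33 and 12.7 RPKM in Huh7, with ratios of 1.82 (1.41 to 2.36) and 1.36 (1.17 to 1.59). ZNF91 had the larger change in Huh7 (0.88 against 0.58) and ZNF93 the larger change in Huh1 (0.67 against 0.41), and neither difference between lines was tested.

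ZNF675, also known as TIZ, is described as an inhibitor of TRAF6 signalling. It was at 5.83 and 10.8 RPKM in Huh1 and at 6.83 and 10.8 RPKM in Huh7, with changes of 0.79 and 0.59. The Huh7 value stood just above the 1.5-fold limit, and ZNF85, at 0.57, just below it. In Huh1 the nearest member under that limit was ZNF91, at 0.58, and the nearest above it was ZNF85, at 0.61. ZNF85 was at 0.803 and 1.76 RPKM in Huh1 and at 2.36 and 3.998 RPKM in Huh7.

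The largest change of a member in Huh1 was that of ZNF253, at 1.09 RPKM with NCsiRNA and 4.17 with CDCA8-1siRNA, a ratio of 3.84 (2.82 to 5.36) and a change of 1.31. In Huh7 it was at 7.33 and 13.5 RPKM, a ratio of 1.85 (1.61 to 2.12). The largest change in Huh7 was that of ZNF429, at 1.88 and 5.13 RPKM, a ratio of 2.74 (1.98 to 3.87) and a change of 1.09. In Huh1 ZNF429 stayed below 1 RPKM, at 0.455 and 0.837, and its interval of 0.906 to 3.77 included 1. ZNF253 and ZNF429 therefore led in different lines, ZNF253 where its control level was the lower and ZNF429 where it was the higher.

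A run of neighbours from ZNF430 to ZNF100 was higher in both lines, like every member that passed the limit in both. ZNF429, given above and under 1 RPKM in Huh1, also lies in this run. ZNF714 was at 3.25 and 5.74 RPKM in Huh1 and at 7.77 and 13.0 RPKM in Huh7, with nearly equal changes of 0.67 and 0.68. ZNF708 was at 1.67 and 2.38 RPKM in Huh1 and at 4.43 and 8.84 RPKM in Huh7, with changes of 0.34 and 0.86. ZNF493 was at 0.692 and 1.16 RPKM in Huh1 and at 1.82 and 3.75 RPKM in Huh7, with changes of 0.35 and 0.75. The Huh7 ratios of the latter pair, 1.99 (1.69 to 2.35) and 2.06 (1.62 to 2.67), lay near 2, and their Huh1 ratios were 1.42 (1.08 to 1.88) and 1.68 (1.11 to 2.51). The ratio of ZNF708 and of ZNF493 was thus larger in Huh7, but in both genes the intervals of the lines overlapped. ZNF430 was at 2.37 and 3.23 RPKM in Huh1 and at 4.24 and 7.17 RPKM in Huh7. ZNF100 was at 3.46 and 5.57 RPKM in Huh1 and at 5.21 and 8.58 RPKM in Huh7. ZNF431, whose product is described as a repressor of the Hedgehog receptor gene PTCH1, was at 2.49 and 3.67 RPKM in Huh1 and at 6.99 and 8.998 RPKM in Huh7. Changes of ZNF430 and ZNF100 were 0.33 and 0.56 in Huh1 and 0.64 and 0.63 in Huh7, and those of ZNF431 were 0.42 and 0.32.

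Members with intermediate changes lay on both sides of this run. ZNF486 was at 1.42 and 3.31 RPKM in Huh1 and at 2.50 and 4.18 RPKM in Huh7, with changes of 0.83 and 0.56. ZNF737 was at 0.426 and 1.01 RPKM in Huh1, barely past the limit, and at 2.11 and 3.59 RPKM in Huh7, with changes of 0.50 and 0.56. In each of these genes the knockdown library of a line lay above its control, and the Huh7 control lay above the Huh1 control. ZNF254, at the centromeric end, was at 0.830 and 1.64 RPKM in Huh1 and at 3.03 and 4.80 RPKM in Huh7, with a change of 0.53 in each line. ZNF726, the most abundant member in both Huh1 libraries, was at 9.14 and 11.9 RPKM there and at 4.37 and 5.94 RPKM in Huh7, with changes of 0.35 and 0.37. The most abundant member in Huh1 was thus not among those with the largest changes.

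Several of the smallest Huh1 changes were at the ZNF101 end of the order. The largest, that of ZNF253 (1.31), was at the same end, and ZNF43, also given here, lay farther along. ZNF101 was at 2.78 and 2.88 RPKM in Huh1, a ratio of 1.03 (0.837 to 1.29), and at 7.45 and 11.1 RPKM in Huh7, a ratio of 1.49 (1.32 to 1.69). ZNF682 was at 2.28 and 2.39 RPKM in Huh1, a ratio of 1.05 (0.785 to 1.39), and at 2.05 and 3.20 RPKM in Huh7, a ratio of 1.56 (1.18 to 2.10). For this pair the counting interval included 1 in Huh1 and lay above it in Huh7, and the difference between the lines was not tested. ZNF14 was at 1.57 and 1.82 RPKM in Huh1 and at 5.98 and 7.18 RPKM in Huh7, with ratios of 1.16 (0.815 to 1.66) and 1.20 (0.9999 to 1.45). ZNF43 was at 1.88 and 2.43 RPKM in Huh1 and at 3.36 and 4.25 RPKM in Huh7, with ratios of 1.29 (0.930 to 1.76) and 1.26 (0.987 to 1.62). ZNF90 was at 3.55 and 3.799 RPKM in Huh1 and at 0.633 and 0.676 RPKM in Huh7, with ratios of 1.07 in each line. Every interval of ZNF14, ZNF43 and ZNF90 included 1, so for these genes a difference was not detectable at this depth.

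A further set of members was measurable in Huh1 and close to 0 in Huh7. ZNF208 was at 3.29 and 6.98 RPKM in Huh1 and at 0.0343 and 0.0866 RPKM in Huh7. ZNF676 was at 1.40 and 3.16 RPKM in Huh1 and at 0.00712 and 0 RPKM in Huh7. ZNF492 was at 1.49 and 2.86 RPKM in Huh1 and at 0.0335 and 0.0780 RPKM in Huh7. The Huh7 values of these genes amount to fewer than 5 reads each, so no knockdown difference could be seen there, while in Huh1 their changes were 0.90, 0.79 and 0.63. ZNF98 and ZNF99 passed the 1 RPKM limit in neither line, ZNF98 at 0.333 and 0.620 RPKM in Huh1 and at most 0.0282 in Huh7, and ZNF99 at 0.474 and 0.511 RPKM in Huh1 and at most 0.0594 in Huh7. These genes follow each other along the chromosome with ZNF257 among them, which was at 2.10 RPKM or more in every library. The only other measured gene between the first and last member, ZNF729, was at 0.118 RPKM or less in each library. ZNF626, in another part of the cluster, was at 0.722 and 1.06 RPKM in Huh1 and at 0.144 and 0.0969 RPKM in Huh7. The converse was seen for ZNF506, at 0.218 and 0.395 RPKM in Huh1 and at 6.23 and 10.3 RPKM in Huh7, with a Huh7 change of 0.64.

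**Figure D3:**
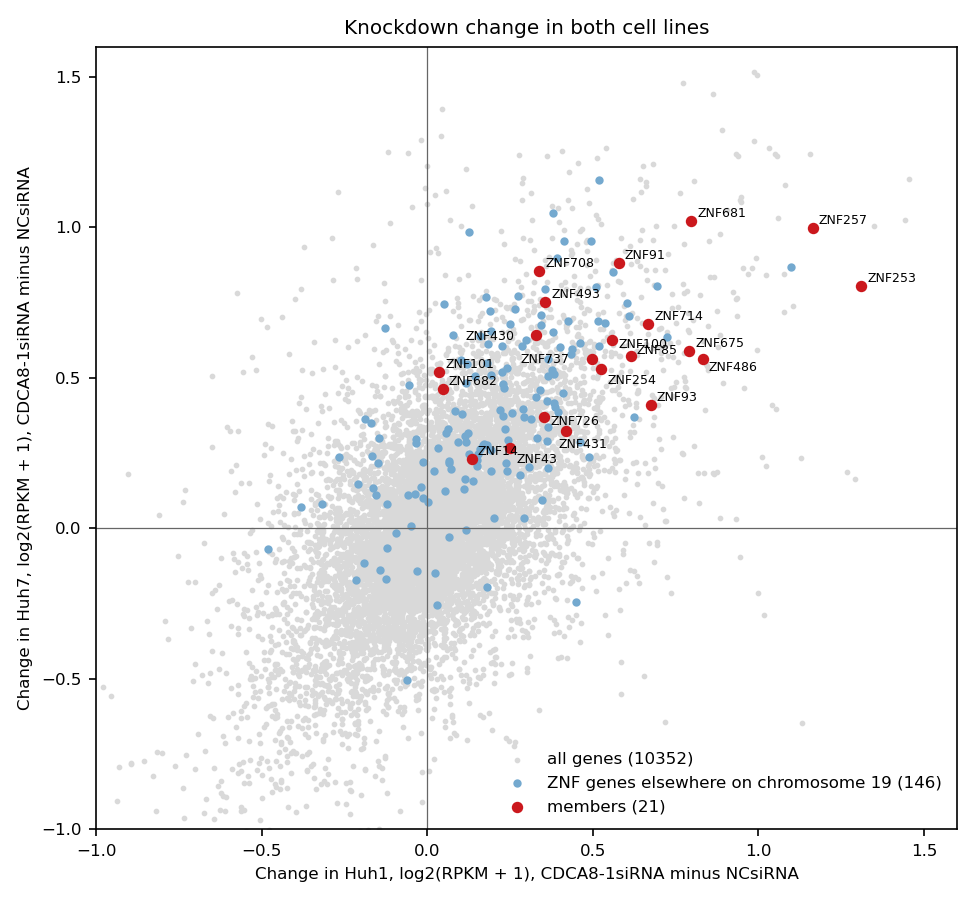
Change in log2(RPKM + 1), CDCA8-1siRNA minus NCsiRNA, in Huh1 (x axis) and Huh7 (y axis), 1 point per gene that passed 1 RPKM in both lines: 10352 genes in grey, 146 ZNF genes elsewhere on chromosome 19 in blue and 21 members in red. All 21 members lie above 0 on both axes, from ZNF14 near the origin to ZNF257 and ZNF253 at the right, and 83 genes lie outside the axes.

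Other zinc finger genes were set beside the members to show where the cluster differs in size of change, again without a test. Of 201 ZNF genes elsewhere on chromosome 19, 150 passed the limit in Huh1 and 117 of them were higher, with a median change of 0.18, and in Huh7 149 of 166 were higher, with a median of 0.32. At least 1.5-fold higher were 6 of these in Huh1 and 39 in Huh7. On other chromosomes, 139 of 194 ZNF genes were higher in Huh1 and 143 of 212 in Huh7, with medians of 0.15 in each line. Chromosome 19 genes without a ZNF symbol had medians of 0.02 in Huh1 and 0.06 in Huh7, close to those of all genes. The cluster had the highest of these medians in both lines, but this contrast was used to choose it, so nothing is read from its place. Among the sets not used in the choice, ZNF genes elsewhere on chromosome 19 had a higher median than those on other chromosomes in both lines. The medians of all genes, members included, were 0.02 in Huh1 and 0.03 in Huh7. Of the 21 members passing in both lines, 14 had the larger change in Huh7. The matching share of all genes was not computed, so nothing is read from this count. Among all genes, 2.48% in Huh1 and 5.3% in Huh7 were at least 1.5-fold higher.

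**Figure D4:**
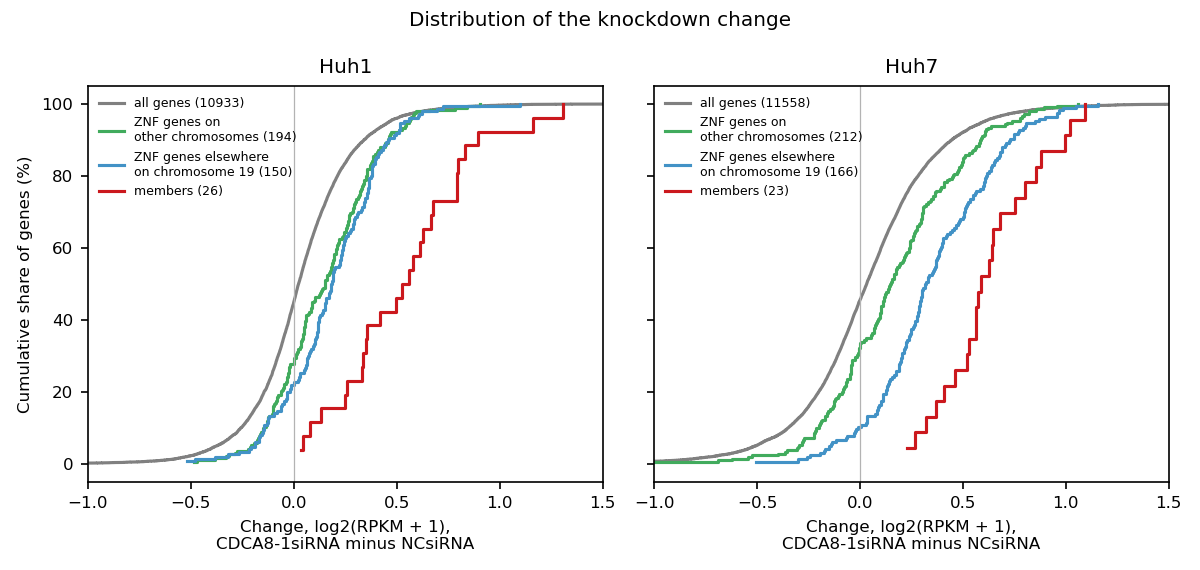
Cumulative share of genes in percent (y axis) against the change in log2(RPKM + 1) (x axis) in Huh1, left, and Huh7, right, for all genes in grey, ZNF genes on other chromosomes in green, ZNF genes elsewhere on chromosome 19 in blue and members in red, with the number that passed 1 RPKM in the key. The red curve starts above 0 and crosses 50% near 0.54 in Huh1 and at 0.59 in Huh7, and 21 and 92 genes of the grey curves lie outside the axes.

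The difference between the cell lines did not enter the choice of the cluster and was tested. With limma, siRNA as a covariate and Benjamini-Hochberg adjustment over 12139 genes, 26 of 28 tested members had an adjusted p under 0.05, 19 higher in Huh7 and 7 lower. Over all genes 42.5% were called higher in Huh7 and 28.8% lower, so calls in either direction were common, and the fit has 1 residual degree of freedom. The median Huh7 minus Huh1 difference was 0.74 for the members and 0.14 for all genes, on the log2(RPKM + 1) scale. The limit here was 1 RPKM in any library, and 5 of the tested members passed it in Huh1 alone (ZNF90, ZNF208, ZNF492, ZNF626 and ZNF676) and 2 in Huh7 alone (ZNF429 and ZNF506), so a difference was built into their choice. Of the 21 that passed in both lines, 17 were called higher and 2 lower in Huh7, where 39.0% and 28.6% of 10352 genes were. With no limit, 17 of 30 members were called higher and 8 lower, where 31.1% and 19.9% of all genes were. With 1 library per line and siRNA, the residual of a gene is how far its siRNA change differs between the lines. It is not a spread between cultures. The prior degrees of freedom exceed the residual one, so the variance behind each p-value was drawn mostly from all tested genes. The p-values therefore do not measure how far cultures of a line differ in a member.

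The member furthest toward Huh7 was ZNF506, with a difference of 2.79 (SE 0.159, adjusted p = 9.77e-07), followed by ZNF253 at 1.74 (SE 0.147, adjusted p = 1.03e-05). ZNF14, ZNF101 and ZNF93 from the same end of the cluster were higher in Huh7 by 1.49, 1.40 and 1.34. Each level of these genes in Huh7 was above each level in Huh1. The members lower in Huh7 were ZNF208, at -2.46 (SE 0.210, adjusted p = 1.10e-05), ZNF676 at -1.65 (SE 0.222, adjusted p = 0.000183), ZNF492 at -1.56 (SE 0.199, adjusted p = 0.000136), ZNF90 at -1.498, ZNF726 at -0.91, ZNF626 at -0.75 and ZNF257 at -0.42 (SE 0.127, adjusted p = 0.0162). For ZNF257 the levels of the lines interleaved, since the Huh7 knockdown library lay above the Huh1 control library. Levels also interleaved for ZNF91, ZNF100, ZNF486 and ZNF681, called higher in Huh7, whose Huh1 knockdown library lay above the Huh7 control library. ZNF675 (0.10, SE 0.114, adjusted p = 0.458) and ZNF682 (0.10, SE 0.156, adjusted p = 0.572) did not pass the test, and both turned negative under quantile normalization. Without the siRNA term in the fit, the calls of ZNF85, ZNF91, ZNF100, ZNF257, ZNF486 and ZNF681 were lost, and with no minimum level those of ZNF91, ZNF257 and ZNF486. With neighbouring members called in opposite directions, the cluster was not uniformly higher in either line.

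The proteins through which KRAB zinc fingers act were measured as well, in a list of 30 co-repressor and heterochromatin genes of which 27 had values. In Huh1, 17 were higher and 10 lower after knockdown, with a median of 0.02, and in Huh7, 13 were higher and 14 lower, with a median of -0.01. TRIM28 was at 131 and 127 RPKM in Huh1 and at 161 and 127 RPKM in Huh7. SETDB1 was at 15.1 and 15.6 RPKM in Huh1 and at 12.7 and 13.5 RPKM in Huh7. Neither reached a 1.5-fold difference, nor did any gene of the list in Huh1. In Huh7 1 gene was at least 1.5-fold higher, CHD3, a NuRD helicase, at 16.9 and 26.6 RPKM, and 1 at least 1.5-fold lower, CBX3, which encodes HP1 gamma, at 189 and 120 RPKM. CHD3 was at 17.1 and 25.1 RPKM in Huh1, a change of 0.53, and CBX3 at 152 and 127 RPKM, a change of -0.26. The deacetylase HDAC1 was at 75.5 and 104 RPKM in Huh1 and at 87.5 and 108 RPKM in Huh7, and the chromatin remodeller ATRX at 7.42 and 9.12 RPKM and at 9.07 and 12.8 RPKM. Most genes of this machinery thus had smaller changes than the median member of the cluster.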

How the data were processed

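RNA libraries of Huh1 and Huh7 cells transfected with NCsiRNA or CDCA8-1siRNA were analysed, 1 per condition. The authors deposited 1 value per RefSeq transcript and library, 18398 in all, without a stated unit, and the values behave as RPKM. The submitters' processing notes name CASAVA 1.8.2, TopHat2 2.0.9 and hg19, while the counting tool, the annotation and the treatment of reads that map to several genes are not given in the sources used here. For 16 repeated symbols the transcript with the highest mean was kept. Read numbers were derived from RPKM, GENCODE 29 transcript lengths and a constant per library. Between 35.2% and 38.1% of values from 0.5 to 20 reads came within 0.05 of a whole number, so they were used only for counting intervals and no count test was run.

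Changes were differences of log2(RPKM + 1) over genes with at least 1 RPKM in 1 library of the pair, called at 1.5-fold and 2-fold. The lines were compared with limma 3.58.1 in R 4.3.3 (lmFit, eBayes with trend, prior degrees of freedom 7.43), two-sided, with Benjamini-Hochberg adjustment. Other steps used Python 3.11.15, numpy 2.4.6, pandas 2.3.3 and scipy 1.17.1. The limma fit was also run on simulated reads with independent variation between libraries and no siRNA effect. That setting differs from the measured libraries, so nothing is concluded from it about the p-values. Every member was to be named, with the values of those reaching 1 RPKM, TRIM28, SETDB1 and the 4 co-repressor genes with the largest mean absolute change. The members and lists were chosen with earlier results of these data known. Alternatives were a pseudocount of 0.1 RPKM, no minimum, a minimum of 5 RPKM, quantile and upper quartile scaling, summing repeated symbols, and limma without the siRNA term or the trend, and leaving out members with under 80% unique 50-base stretches was added after seeing the data. Promoters came from RefSeq on GRCh38.p14, and no coordinates were converted.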

Additional observations from a re-analysis of the deposited data

Results flagged for a closer look

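In 3 members the change went in opposite directions in the lines, being higher after knockdown in Huh1 and lower in Huh7. The Huh7 change minus the Huh1 change was -0.32 for ZNF626, -0.80 for ZNF676 and -0.0429 for ZNF99, on the log2(RPKM + 1) scale. There is 1 library per condition, so these differences were not tested, and the Huh7 levels of these genes were all under 0.15 RPKM.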

How the results depend on the processing

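With a pseudocount of 0.1 RPKM, 8 members in Huh1 and 4 in Huh7 were at least 2-fold higher, and the member medians were 0.74 and 0.72. With no minimum the Huh1 median was 0.46. With a minimum of 5 RPKM, which leaves fewer genes, 7 members were higher in Huh1 and 15 in Huh7, with medians of 0.67 and 0.64. In each line 1 was at least 2-fold higher, and limma called 12 members higher and 3 lower in Huh7. The shares of all genes at this minimum were not computed, so nothing is read from these counts. Under quantile normalization the Huh1 member median was 0.45, the Huh1 median of all genes turned to -0.0056, the Huh7 count at 2-fold was 1, the Huh1 changes of ZNF101 and ZNF682 turned to -0.0305 and -0.0283, and the line differences of ZNF675 and ZNF682 turned to -0.0359 and -0.18. The cause was not tested. A 1.5-fold call gave 11 and 12 members.

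Of the 315 values of single members' knockdown changes under these alternatives, 299 stayed as reported and 2 changed sign. The other 14, all with the smaller pseudocount, moved by more than the 95% counting error of the log2(RPKM + 1) change. Many of the 299 could not differ, because another minimum or leaving out members does not alter the value of a single gene. The tally is therefore no measure of robustness. With the smaller pseudocount 35 values stayed as reported, with quantile normalization 47 and with upper quartile scaling 49. Of 184 line differences, 171 kept their direction and call, 11 lost the call and 2 changed sign. Without the siRNA term limma called 14 members higher and 6 lower. The share of all genes called in that fit was not computed, so nothing is read from these counts.

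Pairing by replicate number was not possible because each condition has 1 library, and for the same reason no replicate was left out. The limma fit of the line difference already matches the libraries by siRNA. Depth limits members under 1 RPKM most, and variation between cultures was not measured.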
